A study of Homo sapiens with 9 samples.

Results

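Haem is built in steps that pass from the mitochondrion to the cytosol and back. ALAS1 joins glycine and succinyl-CoA in the first, rate-limiting step outside red cells, ALAD, UROS, UROD, CPOX and PPOX turn the product into protoporphyrin, and FECH inserts the iron. Haem oxygenase 1, encoded by HMOX1, opens the ring again, and BLVRB is a biliverdin reductase. In liver cells much of the haem goes into cytochromes P450. ALAS1 belongs to the same enzyme family as serine palmitoyltransferase, the enzyme silenced in this study.

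These 9 genes were taken, out of 19775 measured genes, as every probe set that the platform annotation maps to 1 of the symbols and to no other gene. They had 18 probe sets, the groups of short probes that read a transcript on the array. The list names genes by their function, but its choice was made with results in view: CPOX was chosen by its log2 levels in the SPTLC123 and scramble arrays, where it fell strongly. The values of CPOX are therefore given as a description with no test, also for DEGS1 against scramble, which uses the same scramble arrays.

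RNA came from Huh7, a human hepatocarcinoma cell line, on 9 Affymetrix arrays. Of these, 3 arrays each were from cells given scramble siRNA (Silencer Select scramble #1), siRNA against SPTLC1, 2 and 3 together (SPTLC123), and siRNA against DEGS1, all lipid-transfected at 20 nM. Serine palmitoyltransferase, made of the SPTLC subunits, starts ceramide synthesis, and DEGS1 encodes dihydroceramide desaturase, which makes its last step. The labels place harvest at 72 h after transfection, whereas the protocol adds low-serum medium at 72 h and harvests another 24 h later, and the labels do not settle which holds. The labels call the arrays biological replicates of 1 line without naming separate cultures, so p-values measure the spread between these arrays.

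Values are log2 intensities as normalized by the submitters, and a difference is on the log2 scale, followed by the SE of the limma fit to all 9 arrays. A probe set was called where the adjusted p was under 0.05 (Benjamini-Hochberg over all 54613 probe sets). Array data have no read depth, and precision is set by having 3 arrays a group and by how bright a probe set is. The siRNA targets were low in their own arrays: SPTLC1 202277_at was left with 20.7% of its scramble signal, SPTLC2 203127_s_at with 48.4% and DEGS1 207431_s_at with 7.55%. SPTLC3 was not analysed here. Not every probe set fell alike: SPTLC2 203128_at was left with 84.5% (adjusted p = 0.719, limma). After DEGS1 siRNA, SPTLC1 1554053_at was also lower, at -0.52 (adjusted p = 0.0225). SPTLC1 202277_at and 202278_s_at were not called there (-0.23 and -0.82). All 8 measured hepatocyte markers lay above the median of all values, 4.86, in every array, between 10.45 and 14.43; of the 5 erythroid markers 2 did so, and ALAS2, the red-cell form of the first enzyme, did not. Of the macrophage, endothelial and fibroblast markers, 1 of 5, 1 of 4 and 1 of 5 did. Of these hepatocyte markers, APOA1 (-0.46) and TF (-0.37) were called lower after SPTLC123 siRNA and APOH (-0.95) after DEGS1 siRNA. In 3 arrays (SPTLC123 replicate 3 and DEGS1 replicates 2 and 3) the actin control read 1.15 to 1.31 higher at the 3' end than at the 5' end, against 0.40 to 0.56 in the other 6. These are called the arrays with weak 5' signal below, and results that move with them are given without them; the DEGS1 group then holds 1 array, assumed to vary like the others.

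Stretches of 250 bases upstream of the annotated start are shown for the gene that differed most (CPOX), for the first enzyme of the pathway (ALAS1) and for the enzyme next to CPOX (PPOX). They are RefSeq sequence of GRCh38.p14, 5' to 3' on the gene's strand, with the searched motifs found on either strand in capitals. CPOX lies at chr3:98593612-98593861 on the minus strand, ALAS1 at chr3:52197833-52198082 on the plus strand and PPOX at chr1:161166176-161166425 on the plus strand.
CPOX: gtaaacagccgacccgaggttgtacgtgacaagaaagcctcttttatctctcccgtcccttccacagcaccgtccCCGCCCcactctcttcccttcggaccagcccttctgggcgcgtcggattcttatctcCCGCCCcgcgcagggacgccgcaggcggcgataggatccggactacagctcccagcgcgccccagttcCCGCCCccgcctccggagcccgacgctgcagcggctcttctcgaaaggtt
ALAS1: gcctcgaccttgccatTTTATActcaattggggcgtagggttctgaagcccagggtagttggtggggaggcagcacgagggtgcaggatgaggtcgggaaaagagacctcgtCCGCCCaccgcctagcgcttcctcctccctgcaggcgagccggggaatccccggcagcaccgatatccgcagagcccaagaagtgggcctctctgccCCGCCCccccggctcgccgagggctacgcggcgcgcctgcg
PPOX: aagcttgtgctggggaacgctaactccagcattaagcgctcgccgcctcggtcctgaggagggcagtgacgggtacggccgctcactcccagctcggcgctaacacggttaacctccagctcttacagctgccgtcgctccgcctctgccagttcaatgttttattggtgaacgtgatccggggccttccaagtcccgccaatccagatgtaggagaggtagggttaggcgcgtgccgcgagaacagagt
The capitals in CPOX are 3 GC boxes, and those in ALAS1 are 2 GC boxes and 1 TATA box. The motifs searched were the GC box (GGGCGG), the E-box (CACGTG), the antioxidant response element core (TGACNNNGC), the NRF1 motif and the TATA box (TATAAA). In PPOX none of these letters were found in this window. Promoters were at hand for 7 of the 9 genes (not UROS and HMOX1). A GC box was present in 6 of the 7, against 42.3% of all 27305 promoters, and the antioxidant core in 1 of the 7 (FECH), against 11% of all. The TATA box was in 1 of the 7, against 11.1% of all, and the E-box (6.49% of all) and NRF1 motif (1.13% of all) were in none. CPOX was 65.6% G or C in this window, ALAS1 67.2% and PPOX 60%, with a median of 58% over all promoters. A match of letters is not a binding site.

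CPOX, coproporphyrinogen oxidase, was the member with the largest difference, and its low values were those of the SPTLC123 arrays. Its single probe set, 204172_at, read 9.94, 10.35 and 10.15 in the scramble arrays, 7.10, 7.46 and 7.08 in the SPTLC123 arrays, and 9.91, 9.12 and 9.34 in the DEGS1 arrays. The SPTLC123 arrays all lay far below every other array. In RNA from whole cultures, fewer cells with a transcript and less of it per cell cannot be told apart. The difference from scramble was -2.93 ± 0.20 (95% interval -3.39 to -2.47), which left 13.1% of the signal, a 7.64-fold drop and the third lowest difference among the 54613 probe sets. It was -2.87 without the arrays with weak 5' signal, and between -3.06 and -2.83 with any array left out. CPOX was chosen for this fall, so its intervals and rank take no account of that choice and are a description.

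After DEGS1 siRNA the same probe set lay below scramble in all 3 arrays, with a mean difference of -0.69 ± 0.20 (95% interval -1.15 to -0.23). The highest of them, DEGS1 replicate 1 at 9.91, was close to the lowest scramble array, at 9.94. The 2 low DEGS1 arrays are those with weak 5' signal, and without these arrays the difference was -0.23. Leaving out DEGS1 replicate 1 instead gave -0.91. DEGS1 arrays were higher than SPTLC123 arrays by 2.25 ± 0.20, and by 2.64 without the arrays with weak 5' signal.

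**Figure D1:**
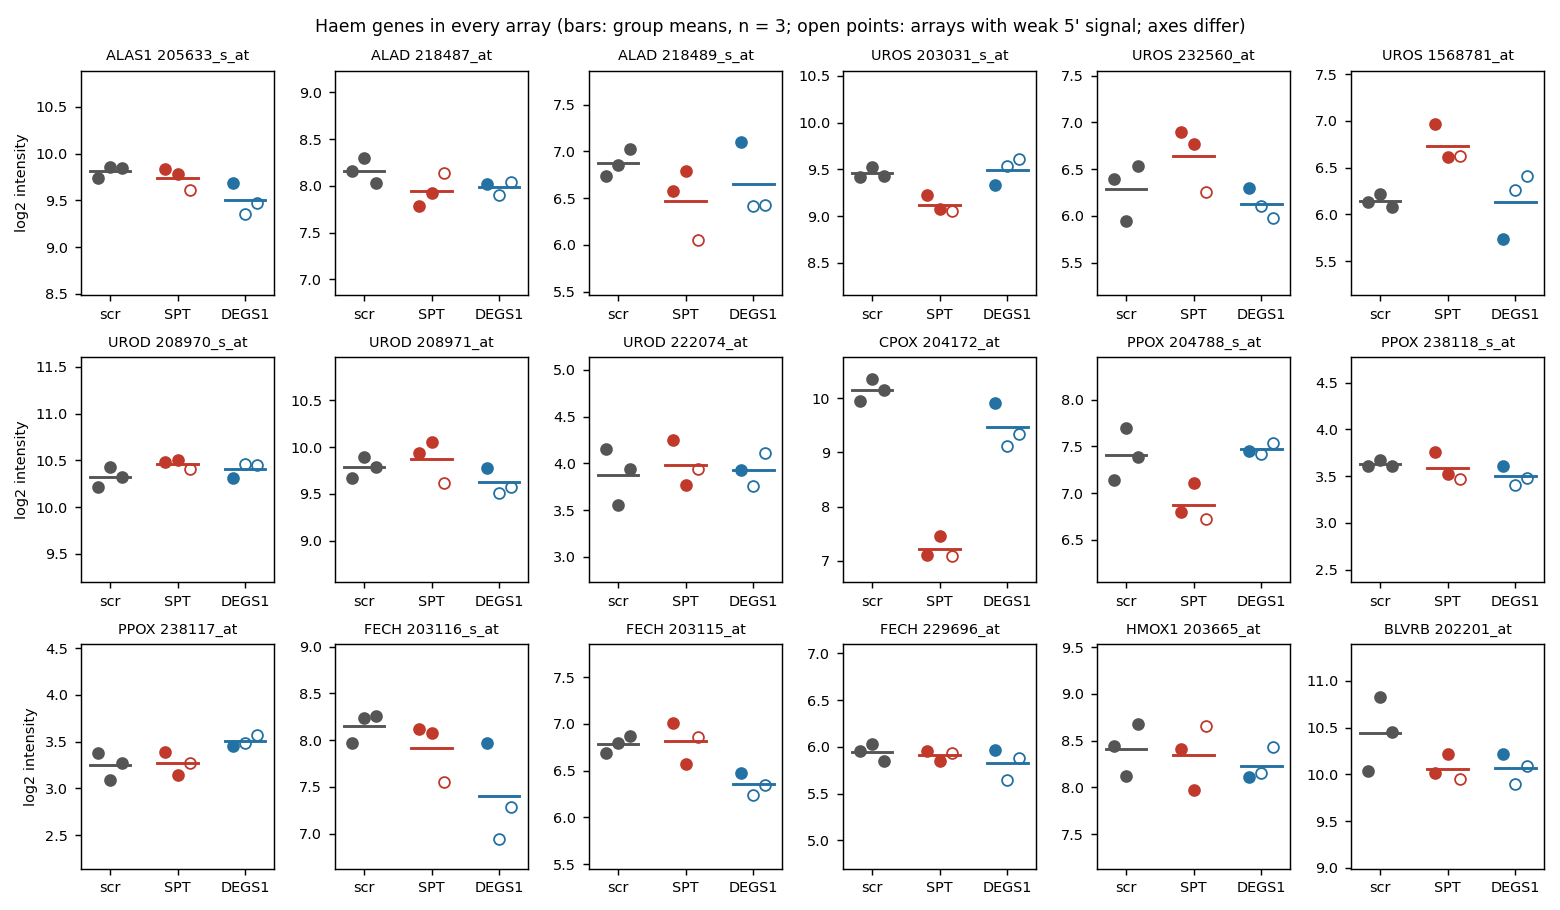
Each panel plots the log2 intensity of 1 probe set in the 9 arrays, with bars for the group means (scr, scramble; SPT, SPTLC123), open points for arrays with weak 5' signal and a different axis per panel. CPOX reads 7.08 to 7.46 in the SPTLC123 arrays and 9.12 or more elsewhere.

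The other steps showed no such fall. None of the 17 other probe sets was called in any of the 3 comparisons by limma. By unadjusted p under 0.05, 3 differed for SPTLC123 against scramble, 4 for DEGS1 against scramble and 6 for DEGS1 against SPTLC123. Over all 54613 probe sets 8865, 10576 and 9670 did so in that order. The lowest adjusted p among the 17 was 0.0905, 0.0991 and 0.0672. The 0 of 17 for SPTLC123 against scramble stands beside 4.52% of all probe sets called (2.63% higher and 1.88% lower). For DEGS1 against scramble 3.42% of all were called (1.82% higher and 1.6% lower), and for DEGS1 against SPTLC123 3.69% of all (1.58% higher and 2.11% lower). CPOX is left out of these counts. With median centring, the share of all calls that were higher moved from 58.3% to 69.4% for SPTLC123 against scramble and from 42.7% to 31.7% for DEGS1 against SPTLC123.

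Groups did not overlap in 3 of the 17 probe sets for SPTLC123 against scramble, where 22.4% of all did not, in 3 for DEGS1 against scramble (21.3% of all) and in 5 for DEGS1 against SPTLC123 (19.8% of all). The median difference of the 17 probe sets without CPOX was -0.04, -0.16 and -0.08 in that order, beside -0.02, -0.00 and 0.02 over all probe sets. For SPTLC123 against scramble, the 95% intervals of all 17 lay within a log2 difference of 1 in either direction, with bounds between -0.92 and 0.98. A p that misses the threshold does not show that a gene stayed level. Of the 18 probe sets, 3 (UROD 222074_at, PPOX 238118_s_at and PPOX 238117_at) lay below the median of all values, where a difference is compressed.

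**Figure D2:**
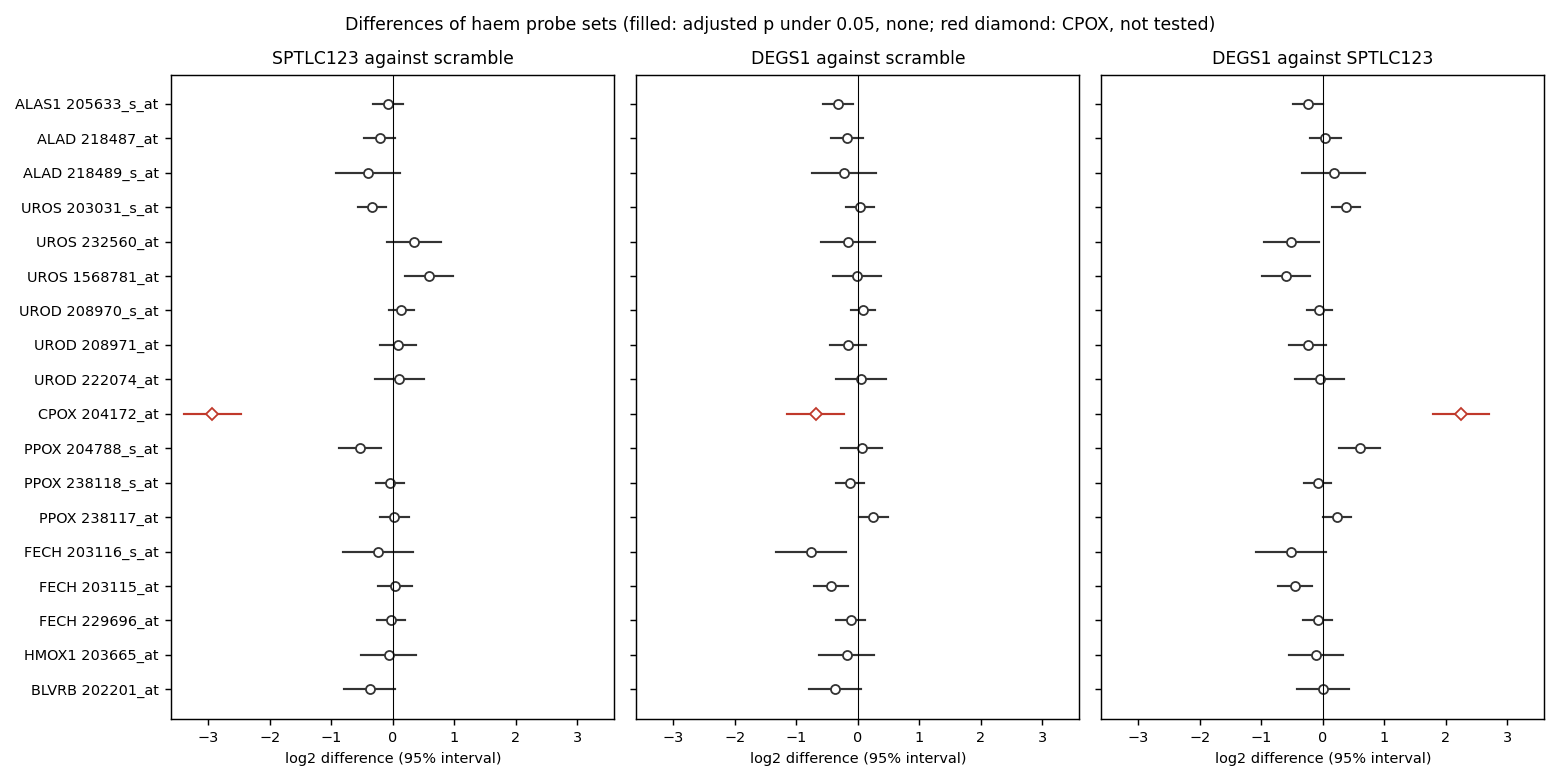
Points give the log2 difference of each probe set in the 3 comparisons and lines its 95% interval, with filled points for adjusted p under 0.05 (none among the 17 tested) and CPOX, not tested, as red diamonds. Only CPOX lies beyond a difference of 1, at -2.93 and 2.25 in the comparisons that use the SPTLC123 arrays.

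ALAS1, the first and rate-limiting enzyme, overlapped scramble after SPTLC123 siRNA. It read 9.74, 9.86 and 9.85 in scramble, 9.84, 9.79 and 9.61 in SPTLC123, and 9.68, 9.35 and 9.47 in DEGS1 arrays. The difference was -0.07 ± 0.11 (95% interval -0.32 to 0.17, adjusted p = 0.834) for SPTLC123. For DEGS1 it was -0.32 ± 0.11 (adjusted p = 0.153), with all 3 arrays below all scramble arrays. Without the arrays with weak 5' signal it was -0.14 (adjusted p = 0.832), and without DEGS1 replicate 1 it was -0.41 (adjusted p = 0.0317).

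ALAD, which joins aminolaevulinate molecules into porphobilinogen, had both probe sets lower than scramble on average over all arrays of either knockdown, with overlapping groups and none called. The brighter, 218487_at, read 8.16, 8.30 and 8.03 in scramble, 7.79, 7.92 and 8.13 in SPTLC123, and 8.02, 7.90 and 8.04 in DEGS1 arrays. The differences were -0.21 ± 0.11 (adjusted p = 0.405) for SPTLC123 and -0.18 ± 0.11 (adjusted p = 0.427) for DEGS1. For 218489_s_at they were -0.40 ± 0.23 and -0.23 ± 0.23. These moved with the arrays with weak 5' signal: without them 218489_s_at differed by -0.19 for SPTLC123 and, with the sign turned, by 0.23 for DEGS1 (0.19 with the actin covariate). In the covariate fit DEGS1 arrays exceeded SPTLC123 arrays on it by 0.42 (adjusted p = 0.0363), against 0.18 ± 0.23 (adjusted p = 0.731) without the covariate.

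UROS, which closes the porphyrin ring, had 3 probe sets that did not move alike. In 203031_s_at the scramble arrays read 9.41, 9.53 and 9.43, the SPTLC123 arrays 9.23, 9.07 and 9.05, and the DEGS1 arrays 9.33, 9.53 and 9.61. The SPTLC123 arrays were all lower, by -0.34 ± 0.10 (adjusted p = 0.101). The probe set 1568781_at went the other way, with 6.13, 6.22 and 6.08 in scramble, 6.97, 6.61 and 6.62 in SPTLC123, and 5.73, 6.26 and 6.41 in DEGS1 arrays. Here the SPTLC123 arrays were all higher than scramble, by 0.59 ± 0.17 (adjusted p = 0.103), and the third, 232560_at, differed by 0.35 ± 0.20 (adjusted p = 0.451). The call for 1568781_at depended on the fit: the adjusted p was 0.0350 without the arrays with weak 5' signal and 0.0196 without DEGS1 replicate 1. For DEGS1 the 3 differences from scramble were 0.03, -0.01 and -0.16. Against SPTLC123, DEGS1 arrays differed by 0.37 ± 0.10 on 203031_s_at (adjusted p = 0.0807; 0.0208 without DEGS1 replicate 1) and by -0.60 ± 0.17 on 1568781_at (adjusted p = 0.107). Without the arrays with weak 5' signal these were 0.18 (adjusted p = 0.737) and -1.06 (just above the threshold and not called), and with the actin covariate the second was -0.70 (adjusted p = 0.0246). No direction for UROS as a gene follows from probe sets that disagree.

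UROD, which decarboxylates uroporphyrinogen just before the CPOX step, overlapped between all groups on its bright probe sets. Its brighter probe set 208970_s_at read 10.22, 10.43 and 10.33 in scramble, 10.49, 10.50 and 10.41 in SPTLC123, and 10.32, 10.46 and 10.46 in DEGS1 arrays. The difference for SPTLC123 was 0.14 ± 0.09 (95% interval -0.06 to 0.34, adjusted p = 0.512) and that for DEGS1 0.09 ± 0.09 (adjusted p = 0.647). The other bright probe set, 208971_at, differed by 0.09 ± 0.13 and -0.16 ± 0.13.

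PPOX, which oxidises the product of CPOX, came closest to the threshold among the other steps after SPTLC123 siRNA. Its bright probe set 204788_s_at read 7.15, 7.69 and 7.38 in scramble, 6.79, 7.11 and 6.72 in SPTLC123, and 7.46, 7.42 and 7.53 in DEGS1 arrays. The SPTLC123 arrays all lay below the others, though the highest of them, at 7.11, was close to the lowest scramble array, at 7.15. The difference was -0.53 ± 0.15 (95% interval -0.87 to -0.20, adjusted p = 0.0905), with 69.2% of the signal left, against 13.1% for CPOX. For DEGS1 against scramble it was 0.06 ± 0.15 (adjusted p = 0.862), and for DEGS1 against SPTLC123 0.60 ± 0.15 (adjusted p = 0.0672; 0.0436 without scramble replicate 2 and 0.0499 without DEGS1 replicate 1). With 1 probe set per gene, adjusted over 19775 genes, it passed, with adjusted p = 0.0387 for SPTLC123 against scramble and 0.0257 for DEGS1 against SPTLC123. In that fit 1 of the 8 genes other than CPOX (PPOX) was called for SPTLC123 against scramble, where 9.94% of all genes were. For DEGS1 against scramble 0 of the 8 were by limma, with 2 at an unadjusted p under 0.05, where 9.7% of all were called. For DEGS1 against SPTLC123 2 were (UROS and PPOX), where 8.66% of all were. Without the arrays with weak 5' signal the PPOX difference from scramble was -0.46 (adjusted p = 0.218), and DEGS1 minus SPTLC123 was 0.51 (adjusted p = 0.509). The dim probe sets 238118_s_at and 238117_at differed by -0.04 and 0.02.

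FECH, which inserts iron into protoporphyrin, was lower on average in DEGS1 than in scramble arrays and close to scramble in SPTLC123 arrays. The probe set 203116_s_at read 7.98, 8.24 and 8.25 in scramble, 8.12, 8.08 and 7.56 in SPTLC123, and 7.98, 6.94 and 7.29 in DEGS1 arrays. The low values were those of the 3 arrays with weak 5' signal, and DEGS1 replicate 1 lay at the lowest scramble value. For DEGS1 the difference was -0.76 ± 0.25 (adjusted p = 0.148), and without those arrays -0.18 (adjusted p = 0.799). The second probe set, 203115_at, read 6.69, 6.79 and 6.87 in scramble, 7.01, 6.57 and 6.86 in SPTLC123, and 6.48, 6.24 and 6.34 in DEGS1 arrays, so that the DEGS1 arrays lay below all others. It differed by -0.43 ± 0.12 (adjusted p = 0.0991) from scramble, and by -0.31 (adjusted p = 0.667) without the arrays with weak 5' signal. Leaving out DEGS1 replicate 1 brought both past the threshold, with adjusted p = 0.00893 and 0.0381. The third, 229696_at, differed by -0.12 ± 0.10 (adjusted p = 0.588). For SPTLC123 the 3 differences were -0.24, 0.03 and -0.03. DEGS1 minus SPTLC123 was -0.52 ± 0.25 and -0.46 ± 0.12 on the first and second (adjusted p = 0.322 and 0.0839; 0.0256 and 0.0364 without DEGS1 replicate 1). With the arrays of weak 5' signal left out these were -0.13 (adjusted p = 0.860) and -0.31 (adjusted p = 0.639).

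HMOX1, the inducible haem oxygenase, did not separate the groups. It read 8.44, 8.12 and 8.68 in scramble, 8.41, 7.97 and 8.66 in SPTLC123, and 8.11, 8.15 and 8.43 in DEGS1 arrays. The differences were -0.07 ± 0.20 (95% interval -0.51 to 0.38, adjusted p = 0.928) and -0.18 ± 0.20 (95% interval -0.62 to 0.26, adjusted p = 0.669). BLVRB read 10.03, 10.83 and 10.46 in scramble, 10.01, 10.22 and 9.95 in SPTLC123, and 10.22, 9.90 and 10.09 in DEGS1 arrays. Its scramble arrays spread widely, and the differences of -0.38 ± 0.19 (adjusted p = 0.371) and -0.37 ± 0.19 (adjusted p = 0.312) were within that spread.

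Wider lists of related genes held 95 measured genes with 236 probe sets. For SPTLC123 against scramble 7 were called higher and 9 lower, for DEGS1 against scramble 5 and 14, and for DEGS1 against SPTLC123 7 and 15. These are 6.78%, 8.05% and 9.32% of the probe sets, beside 4.52%, 3.42% and 3.69% of all. Their median differences were -0.06, -0.12 and -0.04. The shares are not like for like, since 186 of the 236 had a highest group mean above the median of all values, against 28647 of 54613. When those 28647 were fitted alone, 2839, 2392 and 2305 of them were called. Most probe sets of each list below were bright too, so a share above that of all probe sets is not by itself a trait of the list. Among the other enzymes of synthesis and breakdown (5 genes, 11 probe sets), none was called in any comparison by limma. The unadjusted p was under 0.05 for 0, 2 and 0 of them, and for 8865, 10576 and 9670 of all 54613 probe sets. The list includes HMOX2, the constitutive haem oxygenase (-0.06 and 0.03 for SPTLC123), BLVRA, the other biliverdin reductase, POR and UGT1A1.

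The carriers of haem and its precursors (29 probe sets) held the lowest difference of the wider lists after SPTLC123 siRNA, with 0 called higher and 5 lower (17.2% of them), beside 1.88% of all probe sets called lower. The counts were again 0 and 5 when the arrays with weak 5' signal were left out. ABCB10, a transporter of the inner mitochondrial membrane that takes part in haem synthesis, read 9.29, 9.18 and 9.31 in scramble, 7.12, 7.52 and 6.84 in SPTLC123, and 9.41, 8.58 and 8.54 in DEGS1 arrays. It fell by 2.10 ± 0.24 after SPTLC123 siRNA (adjusted p = 0.00182), leaving 23.3% of the signal, and the difference was -1.94 without the arrays with weak 5' signal (adjusted p = 0.000729). For DEGS1 against scramble the 2 low arrays were those with weak 5' signal, and the difference of -0.42 ± 0.24 was not called (adjusted p = 0.372). Against SPTLC123, DEGS1 arrays were higher by 1.68 ± 0.24 (adjusted p = 0.00664).

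PGRMC2, a haem-binding protein that delivers haem to the nucleus, had 2 probe sets. In 213227_at the scramble arrays read 7.71, 7.57 and 7.65, the SPTLC123 arrays 6.84, 6.99 and 6.83, and the DEGS1 arrays 8.06, 8.02 and 8.01. It fell by 0.76 ± 0.08 after SPTLC123 siRNA (adjusted p = 0.00151), and was higher after DEGS1 siRNA by 0.39 ± 0.08 (adjusted p = 0.0396). The second call was lost without the arrays with weak 5' signal (0.42, adjusted p = 0.320) and without DEGS1 replicate 3 (adjusted p = 0.133). The other probe set, 201701_s_at, was not called, at -0.43 (adjusted p = 0.127) and -0.15 (adjusted p = 0.575).

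Plasma proteins that bind free haem and haemoglobin fell in both knockdowns, which share their scramble arrays. HPX, haemopexin, read 8.78, 8.67 and 8.56 in scramble, 7.76, 7.68 and 7.30 in SPTLC123, and 7.69, 7.19 and 7.08 in DEGS1 arrays (210013_at). It fell by 1.08 ± 0.18 (adjusted p = 0.0095) after SPTLC123 siRNA and fell by 1.35 ± 0.18 (adjusted p = 0.00601) after DEGS1 siRNA; the second probe set, 39763_at, differed by -0.88 and -0.98. HP, haptoglobin, fell by 1.12 ± 0.15 (adjusted p = 0.00371) and fell by 1.02 ± 0.15 (adjusted p = 0.00891). Without the arrays with weak 5' signal the DEGS1 values were -0.97 (adjusted p = 0.0400) and -0.81 (adjusted p = 0.0834) for the HPX probe sets and -1.05 (adjusted p = 0.0676) for HP.

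Iron genes (65 probe sets) were called 0 higher and 2 lower for SPTLC123 and 2 higher and 3 lower for DEGS1, which is 3.08% and 7.69% of them, beside 4.52% and 3.42% of all probe sets. The counts fell to 0 and 1 in both when the arrays with weak 5' signal were left out. SLC40A1, ferroportin, the iron exporter, read 10.74, 10.96 and 10.89 in scramble, 10.41, 10.22 and 10.40 in SPTLC123, and 9.55, 9.18 and 9.37 in DEGS1 arrays (223044_at), with no overlap between any groups. It fell by 1.50 ± 0.11 after DEGS1 siRNA (adjusted p = 0.000622), and the difference was -1.31 without the arrays with weak 5' signal (adjusted p = 0.0193). Another probe set, 233123_at, did not follow, at 0.06 ± 0.12 (adjusted p = 0.830). After SPTLC123 siRNA 223044_at fell by 0.52 ± 0.11 (adjusted p = 0.0368), a call lost without scramble replicate 2 (adjusted p = 0.129). SLC39A14, an importer of iron and zinc, fell by 0.64 ± 0.12 (adjusted p = 0.0206) after DEGS1 siRNA. Without DEGS1 replicate 3 the adjusted p was 0.0976, and without the arrays with weak 5' signal the difference was -0.42. TFR2 210215_at was higher after DEGS1 siRNA by 0.46 (adjusted p = 0.0454, and 0.171 without DEGS1 replicate 3). The TFR2 difference was 0.51 without the arrays with weak 5' signal.

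Among other proteins that carry haem or a cytochrome b5 domain (33 probe sets), 3 were called higher and 1 lower for SPTLC123, and 0 higher and 3 lower for DEGS1, beside 4.52% and 3.42% of all probe sets called. The counts were 4 and 0, and 1 and 0, once the arrays with weak 5' signal were left out. TDO2, the haem enzyme of tryptophan breakdown, rose after SPTLC123 siRNA by 2.29 ± 0.35 on 205943_at (adjusted p = 0.00702), from 4.66 ± 0.28 (SD, n = 3) to 6.95 ± 0.43 (SD, n = 3). The scramble value lies below the median of all, and the dimmer probe set 231702_at did not follow (-0.07, adjusted p = 0.881). CAT 201432_at, catalase, was higher by 0.43 and CYB5B 238554_at by 0.68 (adjusted p = 0.0166 and 0.0172). Both calls were lost without SPTLC123 replicate 1 (adjusted p = 0.0677 and 0.0738). The brighter CYB5B probe sets were not called. Their scramble and SPTLC123 means were 10.13 and 10.22 on 201633_s_at, and 10.08 and 10.26 on 201634_s_at. CYB5A, a cytochrome b5, fell on 3 probe sets after DEGS1 siRNA, with differences of -0.76 to -0.70 (adjusted p = 0.00529 to 0.00817), and without the arrays with weak 5' signal the differences were -0.70 to -0.60 with adjusted p = 0.134 to 0.149. DEGS1 itself takes its electrons from cytochrome b5, as background.

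Haem a and cytochrome c assembly (17 probe sets) had 0 called higher and 1 lower for SPTLC123 and 1 and 1 for DEGS1, the latter 0 and 0 by limma with the arrays of weak 5' signal left out. For SPTLC123 and DEGS1 against scramble, 4.52% and 3.42% of all probe sets were called. The unadjusted p was under 0.05 in 8865 and 10576 of all 54613. COX11 211727_s_at was lower after SPTLC123 siRNA at -0.69 (adjusted p = 0.0256, and 0.0926 without scramble replicate 1). CYC1, cytochrome c1, was lower after DEGS1 siRNA at -0.81 (adjusted p = 0.0159, and 0.0772 without DEGS1 replicate 3). Without the arrays with weak 5' signal the CYC1 difference was -0.59. Iron-sulfur cluster assembly (25 probe sets) had 1 called higher and 0 lower for SPTLC123 and 0 for DEGS1 by limma, where 10 reached an unadjusted p under 0.05; the 1 was HSPA9 200690_at, a mitochondrial chaperone, at 0.53 (adjusted p = 0.0157; 0.0651 without SPTLC123 replicate 1). Regulators of haem genes (35 probe sets) had 0 called for SPTLC123 by limma, with 6 at an unadjusted p under 0.05, and 1 called higher for DEGS1. That was NAB1 209272_at, 1 of its 4 probe sets, at 0.42 (adjusted p = 0.0341, and 0.137 without DEGS1 replicate 3). Without the arrays with weak 5' signal the NAB1 difference was 0.36, and its sign turned when the probe sets of the gene were averaged.

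Targets of NRF2 and BACH1, the factors that also act on HMOX1, were called 3 higher and 0 lower of 26 for SPTLC123, 0 higher and 4 lower for DEGS1, and 0 higher and 7 lower for DEGS1 against SPTLC123. These are 11.5%, 15.4% and 26.9% of them, beside 4.52%, 3.42% and 3.69% of all probe sets. With the arrays of weak 5' signal left out, the counts were 1 and 0, 0 and 0, and 0 and 2. HMOX1, as above, was not called. NQO1 201468_s_at was higher after SPTLC123 siRNA by 0.47 (adjusted p = 0.0178, and 0.0734 without SPTLC123 replicate 1). NQO1 210519_s_at was lower after DEGS1 siRNA at -0.65 (adjusted p = 0.0387, and 0.158 without DEGS1 replicate 3). DEGS1 minus SPTLC123 was -0.75 and -0.82 on these probe sets (adjusted p = 0.00256 and 0.0139), or -0.64 and -0.63 without the arrays with weak 5' signal. NQO1 201467_s_at was not called. ME1, malic enzyme, read 9.54, 9.77 and 9.91 in scramble, 10.65, 10.42 and 10.63 in SPTLC123, and 8.92, 8.26 and 8.49 in DEGS1 arrays (204058_at), with no overlap between any groups. It was higher after SPTLC123 siRNA by 0.83 ± 0.17 (adjusted p = 0.0252; 0.0994 without SPTLC123 replicate 1) and fell by 1.18 ± 0.17 after DEGS1 siRNA (adjusted p = 0.00827). Without the arrays with weak 5' signal the DEGS1 difference was -0.82 (adjusted p = 0.129). ME1 204059_s_at was also higher after SPTLC123 siRNA, by 0.58 (adjusted p = 0.0346, and 0.118 without scramble replicate 1). On it DEGS1 minus SPTLC123 was -1.03 (adjusted p = 0.00334), but DEGS1 against scramble was not called. ME1 211204_at was not called. SLC7A11, the cystine importer, was lower after DEGS1 siRNA at -1.28 and -1.25 on 2 probe sets (adjusted p = 0.0342 and 0.0357). Without DEGS1 replicate 3 the adjusted p was 0.139 and 0.148. Without the arrays with weak 5' signal the SLC7A11 differences were -0.89 and -1.27. GCLC, the glutathione synthesis enzyme, was lower in DEGS1 than SPTLC123 arrays, with differences of -0.91 and -1.06 (adjusted p = 0.0112 and 0.00689); the first was lost without DEGS1 replicate 2 (adjusted p = 0.0559), and both without the arrays with weak 5' signal (adjusted p = 0.229 and 0.0844).

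The calls of the named genes held to different degrees. Without the arrays with weak 5' signal, 11 of 14 calls were kept for SPTLC123 against scramble, 2 of 17 for DEGS1 against scramble and 4 of 18 for DEGS1 against SPTLC123. In every fit that left out 1 array, 6, 8 and 7 of them were kept.

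**Figure D3:**
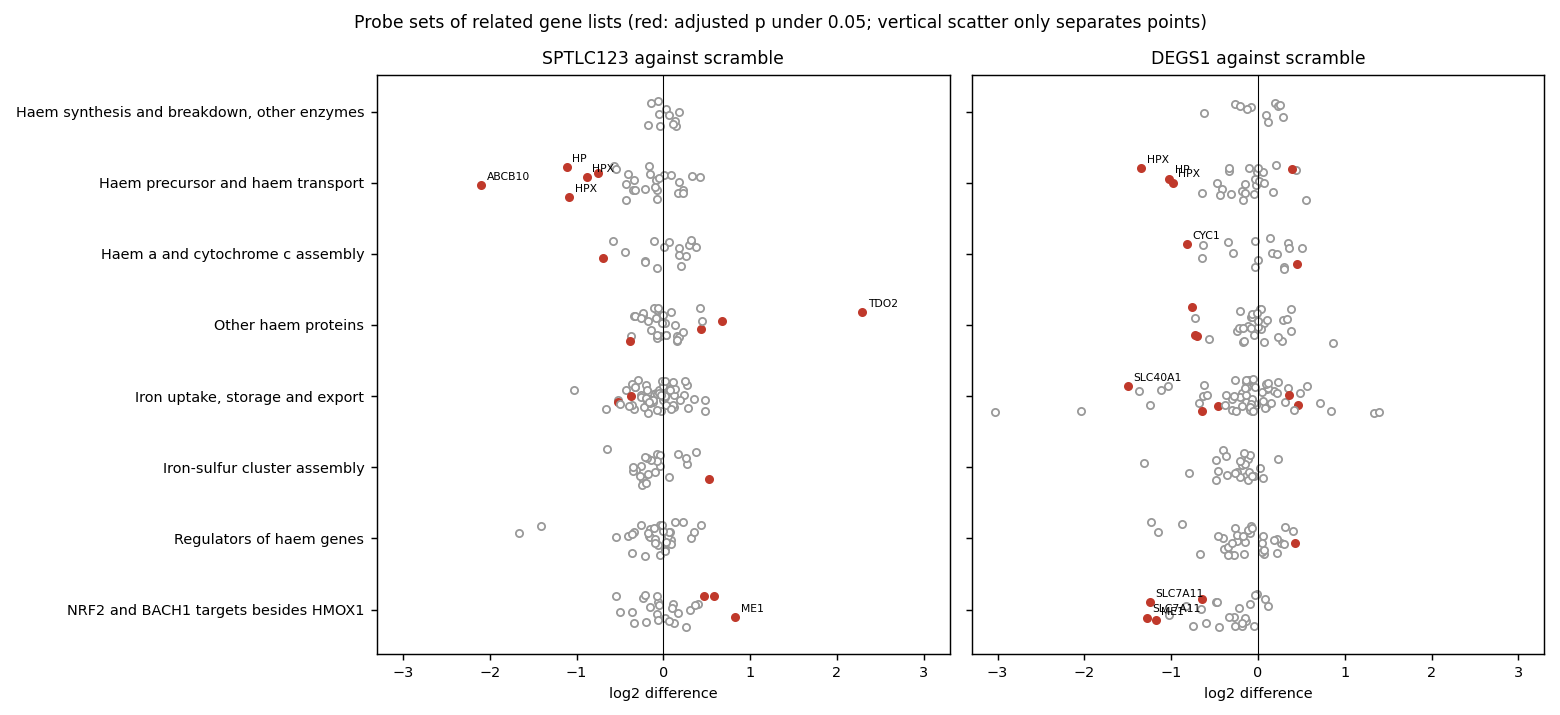
Points are probe sets of the wider lists, by list, with the log2 difference from scramble on the horizontal axis and calls at adjusted p under 0.05 in red. ABCB10 (-2.10) and TDO2 (2.29) stand out after SPTLC123 siRNA, and SLC40A1 (-1.50) is the lowest call after DEGS1 siRNA.

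The genes whose pattern over the 9 arrays was most like that of CPOX were PRPSAP2 (r = 0.996), GIPC2 (r = 0.995), DONSON (r = 0.994), EBAG9 (r = 0.994), ATXN1 (r = 0.990) and GLTP (r = 0.990), by Pearson correlation among 2274 genes with a range of at least 1. The points share their arrays and the low SPTLC123 group, so these values are a description. The differences of these genes after SPTLC123 siRNA were -1.73, -1.74, -2.30, -0.96, -1.69 and -1.13, all smaller than that of CPOX, and after DEGS1 siRNA -0.38, -0.43, -0.57, -0.15, -0.56 and -0.20. ABCB10 correlated with CPOX at r = 0.982. Among the members, PPOX 204788_s_at (r = 0.85) and UROS 203031_s_at (r = 0.789) were the most like CPOX, UROS 1568781_at (r = -0.856) the least, and ALAS1 was at r = 0.0337.

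**Figure D4:**
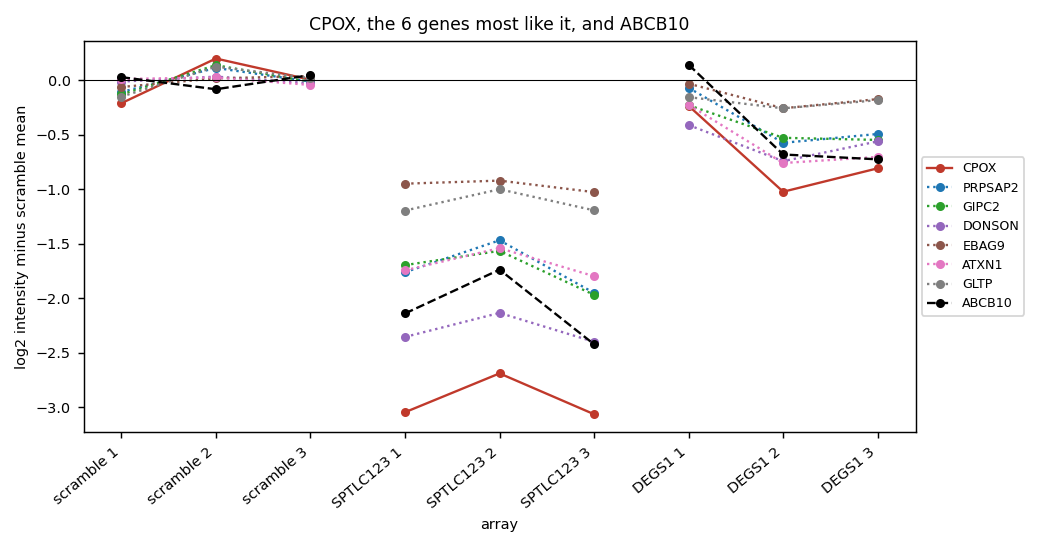
Lines give the log2 intensity minus the scramble mean in each array for CPOX (solid), the 6 genes most like it (dotted) and ABCB10 (dashed). CPOX is lowest in every SPTLC123 array, at -3.06 to -2.69, and in the DEGS1 arrays its values run from -1.02 to -0.23.

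Genes next to CPOX in the RefSeq order on chromosome 3 were GPR15, which lay below the median of all values (-0.05 after SPTLC123 siRNA), and ST3GAL6, a sialyltransferase. ST3GAL6 210942_s_at fell by 1.16 ± 0.15 (adjusted p = 0.00329) after SPTLC123 siRNA and fell by 1.08 ± 0.15 (adjusted p = 0.00777) after DEGS1 siRNA. Next to UROS on chromosome 10, BCCIP 227322_s_at rose by 1.02 ± 0.09 (adjusted p = 0.00048) after SPTLC123 siRNA and by 0.76 ± 0.09 (adjusted p = 0.00318) after DEGS1 siRNA. These neighbours were singled out after their values were seen.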

How the data were processed

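Intensity per probe set and array was deposited on a linear scale, already normalized by the authors; the submitters' processing notes name GCRMA 2.12.1, RMA and limma 2.14.7, and which of them made the values is not given in the sources used here. Values ran from 4.88 to 27330.6, with array medians of 27.92 to 30. They were log2-transformed with no pseudocount. Of 54675 probe sets, 62 controls were left out. Gene names came from the platform annotation: 41091 probe sets had 1 symbol, 1801 several and 11721 were not listed there. A limma 3.58.1 model in R 4.3.3 with a mean for each group covered 54613 probe sets and 9 arrays (6 residual degrees of freedom; statmod 1.5.0 for array weights and robust fits). Tests were two-sided with Benjamini-Hochberg adjustment; the fit was tested on simulated data.

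The 9 genes, the wider lists and the rules were chosen with earlier results of these data known. Genes named are every member, up to 4 per wider list by smallest adjusted p plus HMOX2 and BLVRA, the siRNA targets, and the 6 genes most like CPOX. Promoters are from RefSeq (GRCh38.p14). Alternatives were the probe-set summary, a filter on dim probe sets, 2 normalizations, the variance model, the samples fitted, array weights, the threshold, the replicate block, each array left out, an actin 3' minus 5' covariate, and leaving out the 3 arrays above 0.8 on it.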

Additional observations from a re-analysis of the deposited data

Results flagged for a closer look

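Opposite called directions in the 2 knockdowns were seen for ME1 and PGRMC2, each on 1 probe set only. Of the other ME1 probe sets, 204059_s_at was called higher after SPTLC123 siRNA, at 0.58, but was not called for DEGS1 against scramble. ME1 211204_at was not called. The probe sets with opposite calls were ME1 204058_at and PGRMC2 213227_at. ME1 was higher than scramble in every SPTLC123 array and lower in every DEGS1 array, and DEGS1 minus SPTLC123 was -2.01 ± 0.17 (adjusted p = 0.000552, limma), or -1.62 without the arrays with weak 5' signal (adjusted p = 0.0159). PGRMC2 was lower than scramble in every SPTLC123 array and higher in every DEGS1 array, and DEGS1 minus SPTLC123 was 1.14 ± 0.08 (adjusted p = 0.000271), or 1.15 without those arrays (adjusted p = 0.0216). This is 1 of 2 PGRMC2 probe sets: 201701_s_at was not called and differed by -0.43 and -0.15 from scramble, and without those arrays the DEGS1 rise on 213227_at was not called (adjusted p = 0.320). ME1 for DEGS1 against scramble was not called without them either (adjusted p = 0.129).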

How the results depend on the processing

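Counts here include CPOX, which carries no test. Of the 18 member probe sets (9 in fits with 1 probe set per gene), the number called for SPTLC123 against scramble was 1, and 2 with 1 probe set per gene, with only the 2 groups compared, with array weights and without the 3 arrays with weak 5' signal; leaving out 1 array gave 1 to 2. For DEGS1 against scramble it was 0, then 1 with 1 probe set per gene, 4 with array weights (ALAS1, CPOX and 2 of FECH), and 0 to 4 with 1 array left out, the 4 without DEGS1 replicate 1. For DEGS1 against SPTLC123 it was 1, then 3 with 1 probe set per gene, 8 with array weights, 4 with the actin covariate, and 1 to 5 with 1 array left out, the 5 without DEGS1 replicate 1 and 2 without scramble replicate 2; the cause was not tested. Of 1071 values of single member probe sets under alternatives, 1039 were counted as unchanged, and 53 of these changed sign while not called. For CPOX in comparisons with the SPTLC123 arrays, unchanged means a shift under its pooled SD, whatever the threshold. For the rest it means the same side of the threshold. A further 31 passed the threshold only in the alternative, and 0 reversed while called. Apart from CPOX in those comparisons, no value was called in the main fit, so none could lose a call. The 1 that moved further was CPOX for DEGS1 against SPTLC123, at 2.64 without the arrays with weak 5' signal. Over all probe sets, calls ran from 1166 to 3100, 491 to 9061 and 722 to 7151 with 1 array left out, were 907, 450 and 600 at adjusted p under 0.01, and 2228, 193 and 341 without the 3 arrays. Array weights gave 3440, 10150 and 9884, the actin covariate 4591, 1459 and 3509, fits of only the 2 groups 2161, 859 and 993, and averaging probe sets by gene 1493, 1339 and 1347 of 19775 genes. Same-numbered arrays correlated at -0.49 to 0.70 in their deviations from the group means, over 0.1 in 3 of 9 pairs. Not every array correlated best with its own number. The highest same-number value, 0.70, was between 2 arrays with weak 5' signal (SPTLC123 replicate 3 and DEGS1 replicate 3). This check therefore does not settle whether a number marks a shared culture or day. With the replicate block in limma, 0, 0 and 0 of the 17 other member probe sets were called, with 3, 4 and 6 at an unadjusted p under 0.05. Of all probe sets 2194, 1512 and 1672 were called.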
